A study of Homo sapiens with 4 samples.

Results

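Intronic peaks of histone H3 acetylation in wild-type H929 cells, a human multiple myeloma cell line, are the subject here. They were all peaks of the wild-type (WT) list whose deposited annotation placed them in an intron, 1459 of the 4828 WT peaks, or 30.2% (exact 95% binomial interval 28.9 to 31.5%). Acetylated H3 had been immunoprecipitated from formaldehyde-fixed cells with an acetyl-H3 antibody and the DNA sequenced. H929 cells overexpressing AIMP1 (OE), a scaffold protein of the aminoacyl-tRNA synthetase complex, were compared with unmodified WT cells of the same line. Each condition was 1 library, so no difference between OE and WT cells was tested, and every interval below covers the counting error of peaks only. The labels do not give the vector, its promoter or whether the OE cells were 1 clone. An input sample was also labelled for each condition and was not analysed here. The OE list held 9780 peaks, of which 484 were intronic (4.95%, 4.53 to 5.40%). Neither list gives read counts, so the depth is unknown, and fold enrichments and p-values are the authors' own values that rank peaks within 1 list.

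Acetylation of H3 tails is found at active promoters, and away from them at enhancers, many of which lie in introns of the gene they act on or of a neighbouring gene. First introns are known to hold much of this regulatory sequence, and long genes offer more intron in which a peak can fall. An intronic peak says where acetylated H3 was enriched, and it does not say which gene it acts on.

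The annotation kept peaks within 3 kb of a start site in a promoter class, yet 5 intronic WT peaks still touched 1 of the 34961 RefSeq promoter windows (250 bases before to 50 after a start site). The windows of ACTN4, a crosslinker of actin filaments, and FAM193A, a protein-coding gene beside RNF4, are shown because they are the ones of protein-coding genes. The other 3 belong to long non-coding RNAs. The peak over the ACTN4 window lay in intron 1 of 11 of an ACTN4 transcript, at a start site internal to the gene, and no OE peak overlapped it. The peak at FAM193A was annotated to intron 3 of 4 of RNF4 and overlapped an OE peak. Capitals mark GC boxes (GGGCGG), and CCAAT boxes (CCAAT), TATA boxes (TATAAA) and E-boxes (CACGTG) were also searched on both strands. In the windows shown, no match overlapped another. RefSeq gives the windows in GRCh38.p14, ACTN4 at chr19:38693871-38694170 on the plus strand and FAM193A at chr4:2535125-2535424 on the plus strand.
ACTN4: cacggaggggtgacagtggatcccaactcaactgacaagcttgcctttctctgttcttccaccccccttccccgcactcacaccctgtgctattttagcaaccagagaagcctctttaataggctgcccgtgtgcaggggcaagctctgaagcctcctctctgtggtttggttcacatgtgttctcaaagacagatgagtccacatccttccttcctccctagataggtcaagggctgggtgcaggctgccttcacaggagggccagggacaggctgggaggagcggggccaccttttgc
FAM193A: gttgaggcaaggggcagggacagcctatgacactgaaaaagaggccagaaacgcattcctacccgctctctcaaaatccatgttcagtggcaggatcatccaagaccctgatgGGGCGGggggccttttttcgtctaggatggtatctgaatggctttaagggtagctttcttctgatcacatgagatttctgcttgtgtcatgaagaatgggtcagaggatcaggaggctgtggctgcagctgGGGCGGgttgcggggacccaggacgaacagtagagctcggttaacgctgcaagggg
The ACTN4 window held none of the 4 motifs and had 4 CpG dinucleotides and 56.7% G and C. The FAM193A window held 2 GC boxes, 9 CpG dinucleotides and 54% G and C, against medians of 14 CpG dinucleotides and 58.7% G and C over all windows. A GC box stood in 45.0% of all windows, a CCAAT box in 34.6%, a TATA box in 11.5% and an E-box in 7.27%. The ACTN4 peak had a fold of 4.54 and covered the whole window. The RNF4-annotated peak had a fold of 6.02 and shared 74 bp with the FAM193A window.

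Intronic WT peaks were narrow and weakly ranked. Their median width was 771 bp (quartiles 622 and 1048 bp), against 943 bp for WT promoter peaks and 755 bp for WT distal intergenic peaks. Their median fold was 4.47 (quartiles 3.93 and 5.08), which equalled that of WT promoter peaks, at 4.47, while distal intergenic peaks had 4.54. The p-values separated the classes more. Of the intronic peaks, 86 (5.89%) had a p of at most 1e-05, against 305 (17.5%) of the promoter peaks and 115 (8.64%) of the distal intergenic peaks. Intronic peaks therefore made up 30.2% of the whole WT list and 15.8% of its peaks at that p. The 35 with p of at most 1e-06 had a median width of 1453 bp, and the 1150 with the weakest p-values, above 1e-04, had 705.5 bp. In the OE list, the median intronic peak was 1281.5 bp wide.

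The distance rule sets the edge of the set. The intronic WT peaks nearest to a start site were those of GPD1L at 3012 bp, with a fold of 5.53, FNIP2 at 3023 bp, with a fold of 2.90, and TECTA at 3039 bp, with a fold of 4.19. Just across the edge, in the promoter class, lay peaks at POU2AF1 at 3000 bp, with a fold of 5.53, at NREP-AS1 at -3000 bp, with a fold of 4.56, and at SKAP1 at 2998 bp, with a fold of 3.59. POU2AF1 encodes a B cell coactivator of octamer-binding factors. The folds on the sides of the edge thus covered a like range. Most intronic peaks were far from it, with a median distance of 21.1 kb to the nearest start site (quartiles 9.34 and 47.0 kb). Distances of at most 10 kb were found for 398 peaks, 10 to 50 kb for 726, 50 to 100 kb for 163 and over 100 kb for 172.

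By fold, the first of the intronic WT peaks lay in intron 1 of 3 of ZNF804B, a zinc finger gene, where the fold was 8.05 and the p 3.93e-10 over 988 bp. It was 797213 bp from the nearest OE peak. PHACTR2, a regulator of actin and protein phosphatase, followed with a fold of 7.26 in intron 1 of 11. CHCHD6, a subunit of the mitochondrial MICOS complex, had a fold of 6.98 in intron 5 of 7. These 3 peaks were between 839 and 988 bp wide, and none overlapped an OE peak. BRD7, a bromodomain subunit of the PBAF chromatin remodeller, and GMDS-DT, a long non-coding RNA, each had a peak with a fold of 6.85, in intron 9 of 16 and intron 2 of 3. An intron of a transcript with no gene identifier, nearest to SLC39A10, also had 6.85. PITPNC1, a phosphatidylinositol transfer protein, had a fold of 6.77, PAM, an enzyme that amidates peptide hormones, had 6.70, and CDK14, a cyclin-dependent kinase, had 6.60. The tenth, nearest to DUSP5, a phosphatase of ERK, had 6.60 in a transcript with no gene identifier. None of the 10 overlapped an OE peak, and over all intronic WT peaks the share that did was 1.92%.

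The peaks of smallest p were broader. The first lay in intron 5 of 5 of a transcript with no gene identifier on chromosome 5, nearest to MEF2C-AS1, the antisense RNA of the transcription factor gene MEF2C, with a p of 3.73e-12, a fold of 4.25 and a width of 3983 bp. ANKRD28, a regulatory subunit of protein phosphatase 6, followed in intron 1 of 27 with a p of 8.39e-12 over 2241 bp, 6030 bp from the nearest OE peak. TSHR, the thyrotropin receptor, held a peak with a p of 1.06e-11 over 2765 bp in intron 2 of 10. Each of these was over 2 kb wide. A peak annotated to RNF111, a ubiquitin ligase of the TGF-beta pathway, had a p of 3.63e-11 over 2138 bp. Its centre lay 7.5 kb outside the RefSeq span of RNF111. ZNF804B, named above, came next. FNDC3B had a p of 8.85e-09 in intron 25 of 25, and ANKRD33B had 1.62e-08 in intron 1 of 4. MYO5C, a class V myosin, had 1.73e-08 in intron 9 of 40. NDFIP2, an adaptor of NEDD4 ubiquitin ligases, had 3.05e-08 in intron 2 of 7. Of the 10, the last was the one that overlapped an OE peak. It lay in intron 2 of 2 of CHSY1, a chondroitin sulfate synthase, with a p of 3.10e-08. The widest intronic WT peak, 8641 bp in intron 3 of 6 of TMEM117, had a p of 0.000223 and a fold of 2.71. The medians over intronic WT peaks were 0.000395 and 4.47. Widths of 4014 bp at ARFIP1, 3799 bp in CYS1 and 3337 bp in STON2, an endocytic adaptor, came with folds of 2.38, 3.58 and 3.21. The centre of the peak annotated to ARFIP1 lay 45.8 kb outside the RefSeq span of that gene.

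Few intronic WT peaks had a counterpart in OE cells. An OE peak overlapped 28 of the 1459 by at least 1 bp (1.92%, 1.28 to 2.76%), against 1074 of all 4828 WT peaks, or 22.2%. WT promoter peaks stood apart, with 985 of 1739 overlapping (56.6%), whereas distal intergenic WT peaks had 41 of 1331 (3.08%, 2.22 to 4.16%), close to the intronic share. The median distance from an intronic WT peak to the nearest OE peak was 77.8 kb (quartiles 26.5 and 232.6 kb), against 113.4 kb for distal intergenic peaks. Of the 484 intronic OE peaks, 25 overlapped any WT peak (5.17%). The share was 10.9% over all 9780 OE peaks and 5.93% over distal intergenic OE peaks. Near the edge of the classes the intervals of the shares overlapped. Among intronic WT peaks within 5 kb of a start site, 3 of 127 overlapped an OE peak (2.36%, 0.49 to 6.75%), against 9 of 148 WT promoter peaks 2 to 3 kb out (6.08%, 2.82 to 11.2%). Taking from the OE list only its 4828 peaks of smallest p, the intronic share was 0.685% and that of all WT peaks 15.2%.

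**Figure D1:**
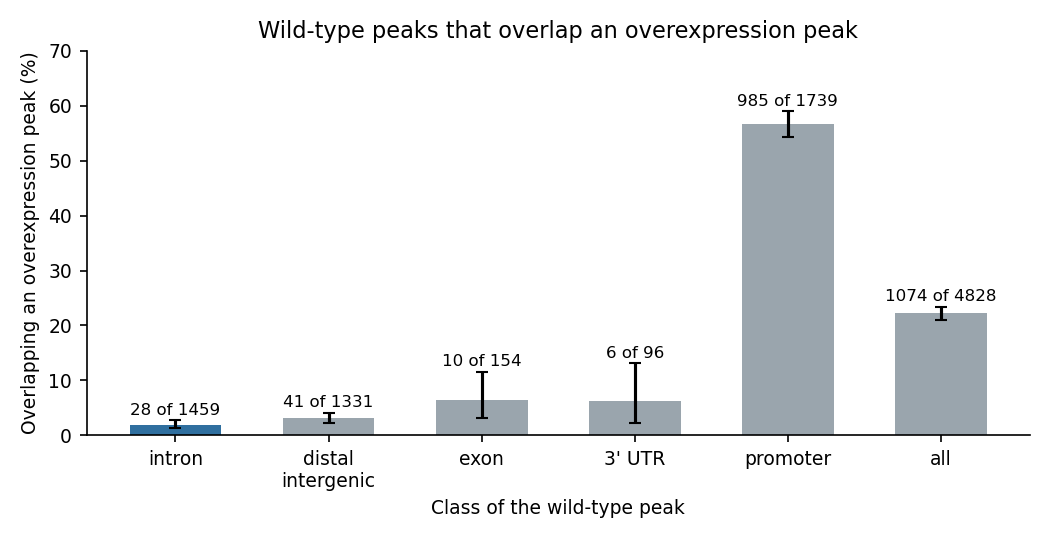
Share of WT peaks overlapped by an OE peak, in percent, for each annotation class of the WT list, with exact 95% binomial intervals. The intronic class stands at 1.92%, below the 22.2% of all WT peaks, and the promoter class at 56.6%.

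The 28 overlapping peaks were a mixed group of genes. Their OE counterparts were intronic for 24, exonic for 2 and in a 5' UTR and a 3' UTR for 1 each. The OE peak was the wider in 25 of 28, with a median width of 1797 bp, and 11 members lay fully inside it. This was not particular to the 28, since median widths were 1621 bp over all OE peaks and 828.5 bp over all WT peaks. Wider peaks also meet another by 1 bp more easily, which was not adjusted for. The median width of the 28 WT peaks was 1122.5 bp and their median fold 3.95, against 765 bp and 4.48 for the 1431 that did not overlap. By WT fold the first was annotated to ACTB, cytoplasmic actin, where the OE peak was 2637 bp with a fold of 9.53 in its own list and the WT peak 566 bp with a fold of 6.54. At FAF2, a factor of protein degradation at the endoplasmic reticulum, the OE peak had a width of 1071 bp and a fold of 5.85, and the WT peak 789 bp and 6.28. At RNF4, a ubiquitin ligase for SUMO-modified proteins, the OE peak had 1355 bp and a fold of 12.05, and the WT peak 725 bp and 6.02, at the FAM193A window printed above. RCC1L, a mitochondrial protein, was one of the 3 places where the OE peak was not the wider, with 925 bp in OE cells and 1088 bp in WT cells. At CCDC88C, a regulator of Wnt signalling, the shared region was 890 bp, and the OE peak had a p of 0.00083 and the WT peak 0.000579. The ACTB and RNF4 centres lay 24.1 and 19.9 kb outside the RefSeq spans of these genes, and the reason was not tested.

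Further overlapping peaks, named after their values were seen, were as follows. In RASA3, a GTPase-activating protein for RAS, the OE peak was 5376 bp with a p of 2.61e-60 and the WT peak 1352 bp with a p of 0.000469, lying wholly inside it. In RUNX1, a haematopoietic transcription factor, an OE peak of 2262 bp and a WT peak of 1453 bp shared 1043 bp. In ARID1B, a subunit of the BAF remodeller, an OE peak of 1851 bp and a WT peak of 668 bp shared 149 bp. These 3 hosts show how unequal the paired peaks could be. In CHSY1, the OE peak of 3433 bp and the WT peak of 2761 bp shared 2729 bp. In PFKFB3, a regulator of glycolysis, the OE peak of 1592 bp and the WT peak of 1391 bp shared 991 bp, and in KLHL6, a gene of germinal centre B cells, peaks of 2226 bp in OE cells and 2091 bp in WT cells shared 478 bp. A promoter peak in OE cells was also listed for RASA3, RUNX1, CHSY1 and PFKFB3, and none for ARID1B or KLHL6. Chromosome 19 held 5 of the 28, in KLF16, MYO9B, TLE2, ZBTB7A and ERCC1. It held 24 of all intronic WT peaks (1.64%) and 50 of the intronic OE peaks (10.3%).

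Intron number was given in the annotation of every member. The first intron held 207 of 484 intronic OE peaks (42.8%, 38.3 to 47.3%) and 450 of 1459 intronic WT peaks (30.8%, 28.5 to 33.3%). If every intron of the annotated transcripts counted alike, the first would hold 21.2% in OE cells and 19.1% in WT cells. In transcripts of 5 or more introns the first held 39.6% of the OE peaks and 23.3% of the WT peaks, against 9.71% and 9.14% if all introns counted alike. First introns are often the longest of a gene, and intron lengths were not in the files, so their part in these shares was not tested. Over 10 kb from a start site, the first intron still held 38.1% of OE and 28.7% of WT intronic peaks. The median intron number was 2 in the OE list and 3 in the WT list, in transcripts of 8 and 9 introns at the median. Intron 11 or later held 41 OE peaks (8.47%) and 185 WT peaks (12.7%). The last intron held 16.9% of the OE peaks and 15.9% of the WT peaks. The highest number belonged to NEB, the giant actin-binding protein of skeletal muscle, where the WT peak lay in intron 68 of 149 (fold 4.57, p 0.000818). Along the host gene from start to end, 334 OE and 1024 WT intronic peaks could be placed, and the median centre lay at 46.9% of the gene length in each list. In 10 equal parts of the gene, each part held between 7.49% and 14.97% of the placed OE peaks and between 6.64% and 12.1% of the placed WT peaks, and the part at the gene end was the lowest in WT cells.

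**Figure D2:**
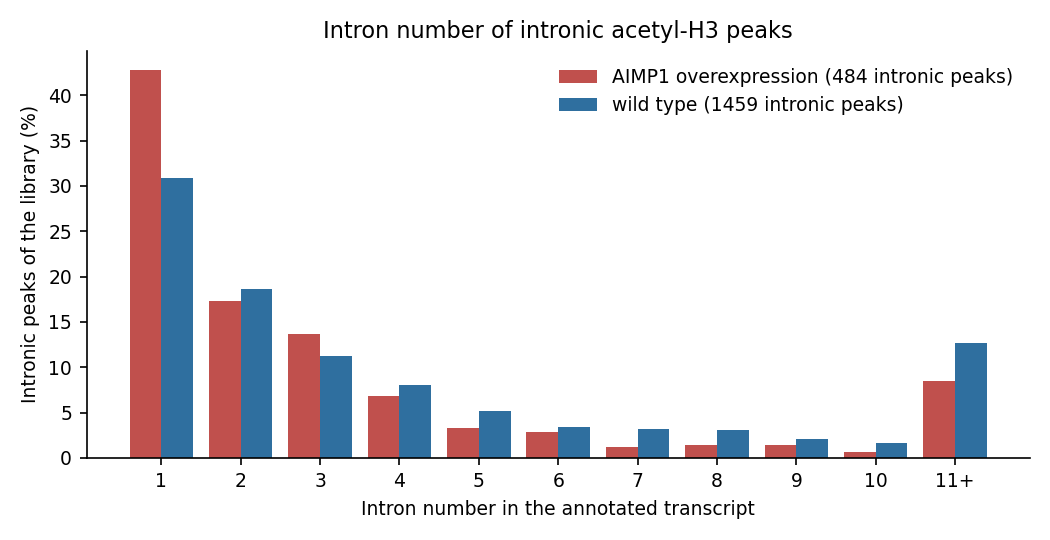
Share of intronic peaks, in percent, by the number of the intron in the annotated transcript, for the OE list (left bar of each pair) and the WT list (right bar). The first intron holds 42.8% of the OE peaks and 30.8% of the WT peaks, and introns 11 and later 8.47% and 12.7%.

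Host genes were taken from the transcript named in the annotation. A gene identifier was given for 1292 members, of which 1290 matched RefSeq, and 167 members lay in transcripts with none. The 1290 peaks fell in 963 host genes, of which 869 were protein-coding and 92 long non-coding RNA genes. These 869 are 4.35% of the 19970 protein-coding genes. The nearest start site belonged to the host for 1053 of 1459 peaks (72.2%). For the other 406 it belonged to another gene or transcript. The centre lay inside the RefSeq span of the host for 1200 of the 1290 (93.0%).

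Host genes of intronic WT peaks were long. Their median length was 139 kb (quartiles 65.5 and 276.5 kb), against 24.2 kb for all protein-coding genes and 29.2 kb for genes with a WT promoter peak. The deposited span, which is that of the gene with the nearest start site and not of the host, gave a median of 28.5 kb. Host genes of intronic OE peaks had a median of 98.0 kb. Length and peak number went together, from 120.9 kb for the 768 hosts with 1 peak to 222.6 kb for the 125 with 2 peaks and 435.3 kb for the 70 with 3 or more. Since a long gene offers more intron, the peaks were also set against gene length. The whole span was used, although peaks within 3 kb of a start site went to the promoter class. That rule takes a larger part of a short gene, and its part in the rates was not tested. Peaks were counted by annotated host, also where the centre lay outside its RefSeq span. Among the shortest genes these included WT peaks 24.1 kb outside ACTB and 377.1 kb outside CLDN11. The rates of short genes are thus not those of peaks inside the genes alone. Per 10 Mb of protein-coding gene span, genes of up to 20 kb had 3.74 intronic OE peaks and 4.67 intronic WT peaks. Genes of 20 to 50 kb had 5.44 and 7.71 per 10 Mb, in the OE and the WT list, and genes of 50 to 100 kb had 4.25 and 8.60. The lists parted with length. Genes of 100 to 200 kb had 3.80 OE and 10.2 WT peaks per 10 Mb, genes of 200 to 500 kb had 2.39 and 11.03, and genes over 500 kb had 0.878 and 7.83. Among the 314 genes over 500 kb, 22 held an intronic OE peak (7.01%) and 95 an intronic WT peak (30.3%).

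**Figure D3:**
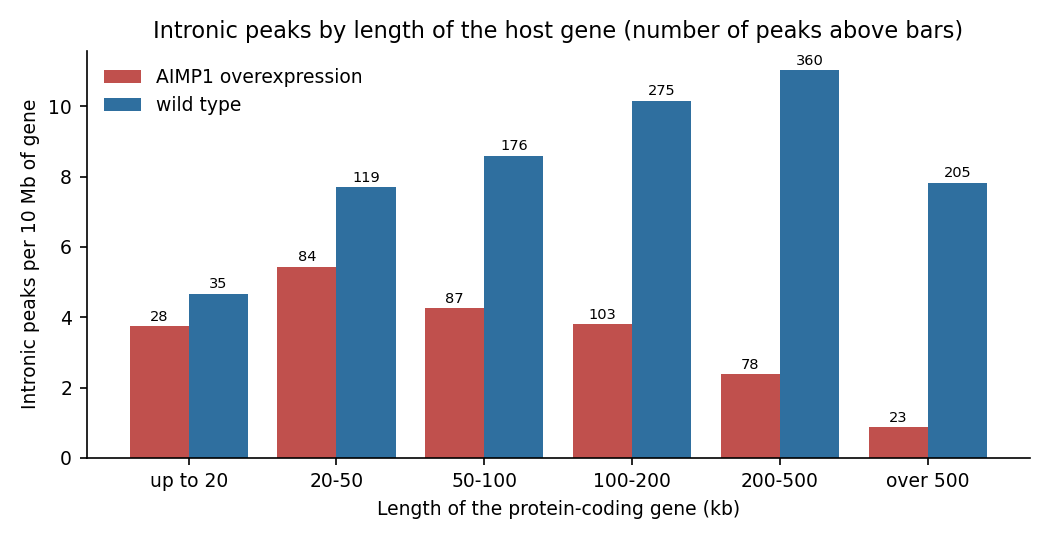
Intronic peaks per 10 Mb of protein-coding gene span by gene length, for the OE list and the WT list. The OE rate is 0.878 per 10 Mb in genes over 500 kb, where the WT rate is 7.83. In genes of up to 20 kb the rates are 3.74 and 4.67. Peaks are counted by annotated host, including those with a centre outside its RefSeq span.

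Several peaks often fell in 1 gene when every listed peak was counted. Of the 963 hosts, 195 (20.2%) held 2 or more intronic WT peaks and together 522 members (40.5%). With p of at most 1e-05, 3 of 77 hosts did, and without chromosomes 4, 5, 7 and 13, 106 of 655. In the whole set 16 held 5 or more, with 95 members. GPC6, a glypican that carries heparan sulfate at the cell surface, had most, 12 peaks between 301 and 1111 kb from the start of its 1191 kb span on chromosome 13. Their folds ran from 3.10 to 4.80, and the smallest p was 3.72e-06, in intron 2 of 8. In OE cells GPC6 had 1 peak, a promoter peak 12.025 kb from the gene start with a fold of 10.72. OBI1-AS1, a long non-coding RNA on chromosome 13, had 8 intronic WT peaks with a best p of 1.69e-06, and no OE peak lay in its RefSeq span, which 6 of the 8 fell inside. LRBA, a vesicle trafficking protein on chromosome 4, had 7, spread from intron 2 to intron 40 of 56, and 1 OE peak, in the promoter class at 0.697 kb. NEGR1, a neuronal adhesion molecule, had 6 with a best p of 7.01e-07 and no OE peak in its span. FNIP2, a partner of the tumour suppressor folliculin, had 6 in 139 kb, or 43.2 per Mb, 4 of them in intron 1 and 2 in intron 16 of 16. Its OE peak stood 0.414 kb from the gene start. CNTN5, a contactin of neurons, had 6 WT peaks, of folds between 2.96 and 5.14, and 1 OE promoter peak with a fold of 4.39.

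The remaining 4 of the 10 hosts with most peaks had 5 each. PDE4B, a phosphodiesterase that degrades cyclic AMP, had 3 in intron 1 and 2 in intron 3 of 16, with a best p of 5.61e-08, and an OE promoter peak at 1.34 kb with a fold of 7.80. CEP128, a centriole protein, had 4 in intron 8 of 14 and 1 in intron 1 of 23, the smallest p being 9.31e-08. LRRC4C, a synaptic adhesion molecule, had folds up to 5.58 with no OE peak in its span. FOXP2, a forkhead transcription factor, had an OE promoter peak with a fold of 14.31 just upstream of the gene start, at -1.22 kb. A further 6 genes also had 5 peaks and fell outside the 10 by p, and they were named after their values were seen. GPC5, another glypican and the neighbour of GPC6, had folds between 4.42 and 5.42 across 1469 kb. RAPGEF6, an exchange factor for RAP GTPases, had 5, of which 2 lay 38.5 and 97.7 kb outside its RefSeq span and in FNIP1, and CDK6, a kinase of the cell cycle, had 21.6 per Mb. PAM had 4 of its 5 in the first intron. DNM3, a dynamin, had folds between 3.69 and 5.03, and PCDH9, a protocadherin, between 3.49 and 4.72. Of these 6, GPC5 and DNM3 had no OE peak in their spans. Among long non-coding RNA hosts, whose median length was 112.9 kb, LOC101929710 had 4 peaks with a best p of 8.59e-07, LINC01435 had 4 with folds from 4.47 to 6.28, and DLEU1, near RB1 on chromosome 13, had 3.

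No intronic WT peak of the 10 genes with most peaks overlapped an OE peak, which stands beside a share of 1.92% over all members and marks no difference. Where an OE peak was found it lay toward the gene start in the promoter class. Peaks of 1 gene share their library and locus and are not independent. Clustering was not particular to introns, since a second WT peak lay within 100 kb of 799 intronic peaks (54.8%), against 58.3% of all WT peaks.

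**Figure D4:**
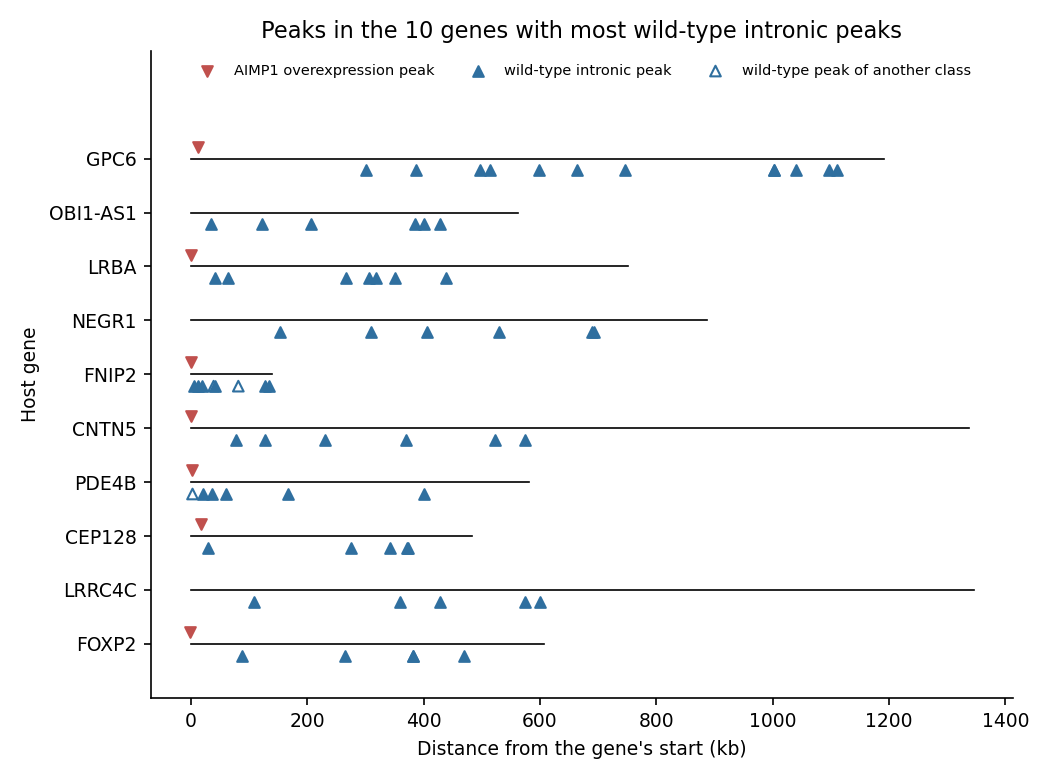
Peaks along the 10 host genes with most intronic WT peaks, drawn by distance in kb from the gene start, with OE peaks above and WT peaks below each gene line. GPC6 shows 12 intronic WT peaks across its 1191 kb and 1 OE peak at 12.025 kb.

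The peaks were uneven over the genome. Per 10 Mb of genic span, chromosome 5 had 3.15 intronic OE peaks and 18.5 intronic WT peaks, chromosome 13 had 4.90 and 18.4, and chromosome 7 had 5.91 and 17.0, where the whole genome had 2.90 OE and 8.73 WT peaks. Chromosomes 19, 21, 22 and X had more OE than WT intronic peaks, with 13.4 OE and 6.44 WT peaks per 10 Mb on chromosome 19, 12.5 and 3.51 on chromosome 21, and 3.99 and 1.60 on chromosome 22. The X chromosome had 1.09 OE and 0.313 WT peaks per 10 Mb. Copy number was not measured in these files, and its part in the chromosome rates was not tested. The 5-Mb windows were ranked by their intronic WT peaks, so a high WT count in the first ones follows from the choice. The first, at 75 to 80 Mb of chromosome 13, held 0 intronic OE peaks and 22 intronic WT peaks. Its hosts included MYCBP2, LMO7, TBC1D4 and OBI1-AS1. The next, at 90 to 95 Mb of chromosome 13, held 0 and 17, all the named hosts being GPC5 and GPC6. The OE list had 484 intronic peaks in the whole genome, so a count of 0 in 1 window says little. With peaks of all classes counted, the window at 75 to 80 Mb held 13 OE and 42 WT peaks. That at 90 to 95 Mb held 3 and 27. Not all windows rich in intronic WT peaks were so. At 100 to 105 Mb of chromosome 7 there were 5 intronic OE and 15 intronic WT peaks, and 83 OE and 32 WT peaks of all classes. Of the 387 windows with an intronic WT peak, the median held 3.

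**Figure D5:**
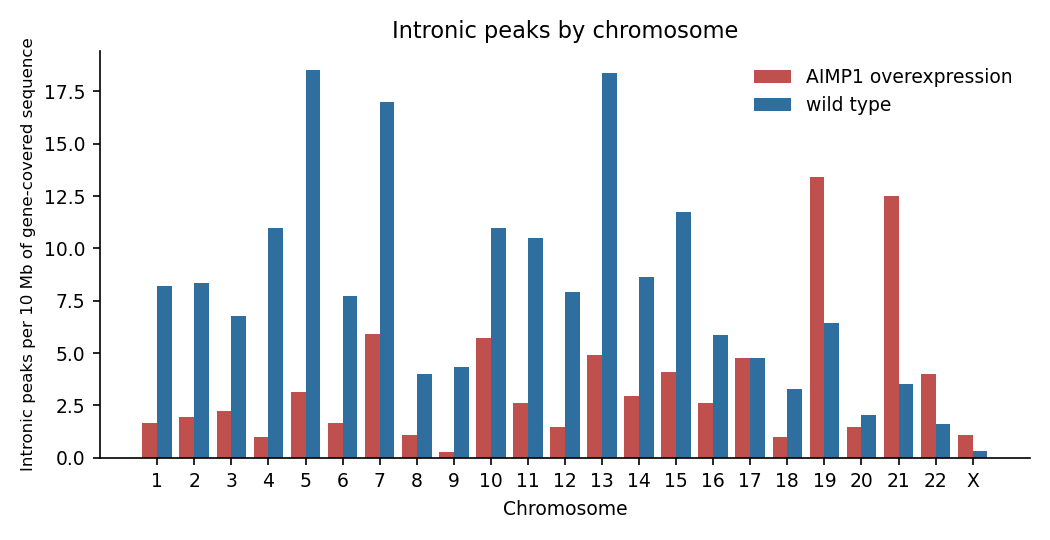
Intronic peaks per 10 Mb of genic span on each chromosome, for the OE list (left bar) and the WT list (right bar). Chromosomes 5, 13 and 7 carry the highest WT rates, at 18.5, 18.4 and 17.0, and chromosomes 19 and 21 the highest OE rates, at 13.4 and 12.5.

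A pair of stretches that held peaks of very small p was chosen after the values were seen. On chromosome 5 around MEF2C and MEF2C-AS1, between bases 88673918 and 89420584, the OE list had 1 intronic and 4 promoter peaks, and the WT list had 13 intronic and 3 promoter peaks. The OE promoter peaks at MEF2C-AS1 were 7870 and 4645 bp wide. MEF2C, a transcription factor of B cells and muscle, held intronic WT peaks of 997 and 1301 bp in intron 6 of 10, and 10 of the 13 lay in transcripts with no gene identifier nearest to MEF2C-AS1. Their folds ran from 2.91 to 5.38. Of the 13, 1 overlapped the OE intronic peak there, by 2440 bp. On chromosome 14 across CEP128, TSHR and STON2, between bases 80584439 and 81858873, the OE list had 1 intronic and 3 promoter peaks, and the WT list had 9 intronic peaks, 6 of them with p of at most 1e-05, and 3 promoter, 2 exonic, 3 3' UTR and 1 distal intergenic peaks. An OE promoter peak overlapped 2 of the 3 WT promoter peaks and none of the 9 intronic ones. In the whole WT list an OE peak overlapped 56.6% of promoter peaks and 1.92% of intronic peaks. The small counts of these stretches mark no difference from those shares. The OE intronic peak lay in intron 9 of 10 of TSHR, and 30.7 kb from the nearest WT peak.

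Many host genes carried a promoter peak in OE cells. Of the 869 protein-coding hosts, 470 had an OE promoter peak (54.1%, 50.7 to 57.4%), against 33.9% of all protein-coding genes. A WT promoter peak was listed for 162 (18.6%, 16.1 to 21.4%), against 7.4% of all protein-coding genes. Both were listed for 124 and neither for 361 (41.5%). The higher share of hosts with an OE promoter peak held in each of the 6 length classes. It was 55.9% of hosts and 27.3% of all genes at up to 20 kb. Over 500 kb it was 37.9% of hosts and 21.3% of all genes. The trait was not particular to hosts of intronic WT peaks. Of the 338 protein-coding hosts of intronic OE peaks, 206 had an OE promoter peak (60.9%) and 60 a WT one (17.8%). Intronic peaks of both lists shared 101 host genes, which were 27.4% of the 369 OE hosts and 10.5% of the 963 WT hosts. Of all protein-coding genes, 4.35% held an intronic WT peak and 1.69% an intronic OE peak. Both sets of hosts were long genes, and the part of gene length in the shared hosts was not tested.

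Gene lists for the cell type and the study's subject were then read for intronic peaks, beside the 1.69% of all protein-coding genes that held one in OE cells and the 4.35% in WT cells. The OE share is so low that counts of 0 or 1 in a short list say nothing particular of it. Among 30 plasma cell and myeloma genes, 2 had an intronic OE peak and 2 an intronic WT peak (6.67%). They were ELL2, an elongation factor for immunoglobulin secretion, with a fold of 4.47, and MEF2C. As a check of the cell type, promoter peaks were listed for 19 of these 30 genes in OE cells and 6 in WT cells, and for 3 of 25 T, NK and myeloid genes in each. Over all protein-coding genes these shares were 33.9% in OE cells and 7.4% in WT cells, so in WT cells the counts are too small to set the lists apart. Among 29 genes of myeloma translocation or mutation, 1 had an intronic OE peak and 3 a WT one, in the kinase BRAF (fold 5.71), the NF-kB regulator BIRC2 (5.14) and the tumour suppressor RB1 (4.00). The NF-kB list had 0 of 28 genes with an intronic OE peak and 2 with a WT one, in BIRC2 and the kinase IKBKB (3.99). B cell genes had 0 of 21 in OE cells and 2 in WT cells, namely the complement receptor CR2 (5.14) and the lymphoid factor IKZF3 (4.50). KLRD1, a receptor of NK cells, was the 1 host among the T, NK and myeloid genes, with a fold of 6.26, and ACTB the 1 among 16 housekeeping genes.

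The RAS pathway list had 1 of 37 genes with an intronic OE peak and 7 with a WT one (18.9%), at a median gene length of 80.52 kb. Its 22.3 intronic WT peaks per 10 Mb of gene lay above the 11.03 of the highest length class. So did the rates of every list but the neuronal and fragile site ones, with 21.7 for histone acetylation and 13.5 for T, NK and myeloid genes. These rates rest on few peaks and were not tested. The 7 had 1 peak each, and besides BRAF they included NF1, a GTPase-activating protein for RAS, in intron 48 of 57 (fold 5.58), and the docking protein GAB1 (4.65). RASA2, another GTPase-activating protein for RAS, had a fold of 4.38. The others were PTPN11, RASA1 and RASA3, of which RASA3 alone overlapped an OE peak. Over all intronic WT peaks the share that did was 1.92%, and 1 peak in a short list says nothing particular of it. Among 35 enzymes and inhibitors of histone acetylation, 0 had an intronic OE peak and 5 a WT one (14.3%), among them the acetyltransferases KAT2B (4.57) and KAT6B (4.39) and the deacetylase HDAC9, with 4 peaks of folds up to 4.34. The most hosts were in the list of neuronal adhesion and synapse genes, with 1 of 40 in OE cells and 15 in WT cells (37.5%), holding 32 intronic WT peaks. Their folds reached 6.28 in DLG2, a synaptic scaffold, 5.93 in NTM, an adhesion molecule, 5.71 in GRM8, a glutamate receptor, and 5.58 in CSMD1. These genes have a median length of 1152 kb, and their 6.33 intronic WT peaks per 10 Mb lay below the 7.83 of all genes over 500 kb. Of 15 genes at long fragile sites, 0 had an intronic OE peak and 5 a WT one (33.3%), DLG2, IMMP2L (5.14), WWOX (5.02), PDE4D (4.63) and PTPRN2. For these long genes the share with a WT peak was near the 30.3% of all genes over 500 kb.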

How the data were processed

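Acetyl-H3 ChIP-seq peak lists of 1 OE and 1 WT library were read as the authors deposited them. Per the submitters' processing notes, reads were handled with cutadapt, Trimmomatic, FastQC and Bowtie2. Neither labels nor headers name the peak caller, its threshold or the genome build. Each list gives, per peak, a fold enrichment (ratio) and a p-value, both deposited by the authors, and the largest p in each was 0.001. The deposited fold changes are not comparable between lists called separately.

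Host gene and intron number were read from the annotation text. Gene lengths and promoter windows came from RefSeq GRCh38.p14, where 99.9% of matched gene identifiers of the OE list and 99.8% of those of the WT list lay at the same place. Peaks were compared by overlap of at least 1 bp, which was tested on simulated peaks, and shares carry Clopper-Pearson intervals (Python 3.11.15, pandas 2.3.3, scipy 1.17.1). Named genes were the 10 hosts with most peaks, the 10 peaks of highest fold and 10 of smallest p, the 5 widest, the 5 overlapping peaks of highest fold, and up to 4 genes of each list by fold. Others were named after their values were seen. The members and the 10 gene lists were chosen with earlier results of these data known. Alternatives varied overlap, p, fold, gene span, promoter distance and peaks counted per gene. The result of 1 gene from the lists is not reported here.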

Additional observations from a re-analysis of the deposited data

How the results depend on the processing

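No paired analysis was possible because only 1 library stood for each condition. With p of at most 1e-05 for the WT peaks, their intronic share was 15.8% and the first intron's share of intronic peaks 25.6%. The number of hosts with 2 or more peaks was then 3 and the median width 1227.5 bp. With that limit put on the OE peaks instead, 43.5% of the 869 protein-coding hosts had an OE promoter peak. The share of all protein-coding genes at that limit is not given here. The overlap with OE peaks was 0.685% with an OE list of equal length, against 15.2% of all WT peaks. With folds at or above the WT median it was 1.05%, against 18.4% of all WT peaks. The median host length was 28.5 kb with the deposited span of the nearest gene, 182.2 kb with each peak counted, and 129.6 kb without chromosomes 4, 5, 7 and 13, an alternative chosen after seeing the data, which left 106 hosts with 2 or more peaks. By construction, the settings on p, fold, list length and chromosomes use fewer peaks, counting each peak enters long genes several times, and the deposited span belongs to the gene of the nearest start site. The other 11 values moved little. Overlap shares lay between 1.51% and 2.33%, first intron shares between 28.7% and 31.2%, and 177 to 203 hosts had 2 or more peaks. The 2.33% was among 86 peaks, with p of at most 1e-05 in both lists. At that setting 36.3% of all WT peaks overlapped, against 22.2% in the main setting. The share of all WT peaks was 24.5% with an OE peak within 1 kb and 19.2% with a larger required overlap. Depth is unknown, so peaks missing from a list cannot be told apart from regions sequenced too little to be called.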

Other observations

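Folds of the intronic WT peaks repeated. A fold of 4.57 was listed for 146 of them (10.0%), 5.14 for 98 and 5.71 for 55, and the 1459 peaks had 249 distinct folds in all. No intronic WT peak overlapped a RefSeq miRNA hairpin, 0 of 1459. Of the 90 peaks whose centre lay outside the RefSeq span of the annotated host, 25 lay in another RefSeq gene. An OE peak overlapped 5 of the 90, those annotated to ACTB, RNF4, PLEKHO2, SQOR and CLBA1, against 28 of all 1459 (1.92%). Of the 167 peaks in transcripts with no gene identifier, 102 had their centre in a RefSeq gene. The values are given without an explanation, which was not tested.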
